A study of Mus musculus with 4 samples.

Results

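The genes described here encode proteins with a whey acidic protein (WAP) domain (Wfdc2, Wfdc17, Wfdc18, Wfdc21 and Slpi), the lipocalin Lcn2 and the calprotectin subunits S100a8 and S100a9. They were taken by symbol from the gene tables of 4 droplet single-cell RNA libraries, and all 8 were found among the 30406 genes that these tables share. They had been picked because their levels in these same libraries differed by cell type, line and ascites, so their values are given as descriptions and support no test.

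Omental tumors grown from 3 mouse lines (KPCA.A, KPCA.B, KPCA.C) gave 1 library each, from 4 pooled tumors of C57BL6J mice 8 weeks old. KPCA ascites gave 1 library from C57BL6J mice 9 weeks old. The labels call the cells of every library fallopian tube epithelial cells. The descriptions treat the 3 lines as genotypes but name no allele, and neither the line behind the ascites nor any pooling of it is given. No normal tissue is among the samples used here. Each group is 1 library, so no difference below could be checked against replicates. Intervals are exact, at 95%, and cover counting error only.

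The libraries held 5703, 3358, 4110 and 3118 barcodes (the tumors KPCA.A to KPCA.C and then ascites, the order used throughout), against 5000 cells stated in the design. After removal of shallow barcodes and of those with many mitochondrial reads, 2648, 2586, 3098 and 2921 cells were used. Their median depth was 7910, 7958, 14660 and 2077 unique molecular identifiers (UMIs, each standing for 1 captured transcript). Pairs of tumor libraries shared 2 to 16 of the barcodes used, and ascites shared 0 with any tumor. The labels give 1 chemistry, yet barcodes opening with AAACCC numbered 9, 3, 4 and 0, and those opening with AAACCT numbered 0, 0, 0 and 5. Chemistry, depth and software version therefore cannot be told apart from the contrast of ascites with tumors.

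Cells were clustered without the 8 genes and named from markers, so each class carries the suffix "-like". Tumor epithelial-like cells, defined by keratins and Cdkn2a, numbered 771, 304, 1198 and 0, so no ascites cluster met the naming rule for the labelled epithelial cell type. A cluster of 16 ascites cells had Krt8 at 781 CPM (UMIs per 1000000 UMIs of the cluster) and Cdkn2a at 511 CPM. It stayed unnamed because Krt18, at 139 CPM, was under the 500 CPM that the rule asks of each keratin. Macrophage-like cells numbered 806, 611, 1094 and 2595, and monocyte-like cells 46, 35, 47 and 227. Neutrophil-like cells numbered 224, 42, 4 and 0, and plasma cell-like cells 32, 324, 47 and 0. The tumors also held 126, 36 and 24 pancreatic acinar-like cells. Macrophage-like clusters of ascites held almost no cells of the tumor libraries, so a cluster may stand for its library and not for a cell type.

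WAP-domain proteins are small, cysteine-rich secreted proteins, several of which block serine proteases. Slpi inhibits neutrophil elastase and cathepsin G, and Wfdc2, known in human medicine as HE4, is an ovarian cancer serum marker. Lcn2 binds the siderophores that bacteria use to take up iron and is made by neutrophils and by inflamed epithelium. S100a8 and S100a9 pair as calprotectin, a calcium- and metal-binding complex that is abundant in neutrophil cytoplasm and is released as an alarm signal.

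On GRCm38, annotated by GENCODE, 7 of the genes lie in 3 neighbourhoods and Lcn2 lies alone. Wfdc17 (ENSMUSG00000069792) spans chr11:83703991-83706268, Wfdc18 (ENSMUSG00000000983) chr11:83709015-83711348 and Wfdc21 (ENSMUSG00000051748) chr11:83746940-83752642, all on the plus strand. S100a8 (ENSMUSG00000056054, chr3:90668978-90670035, plus strand) and S100a9 (ENSMUSG00000056071, chr3:90692632-90695721, minus strand) lie 22596 bases apart. On chromosome 2, Slpi (ENSMUSG00000017002, chr2:164354070-164389095, minus strand) and Wfdc2 (ENSMUSG00000017723, chr2:164562413-164568510, plus strand) are separated by 173317 bases, and Lcn2 (ENSMUSG00000026822, chr2:32384633-32388252, minus strand) is 131965817 bases from Slpi. Only 2746 bases separate Wfdc17 from Wfdc18, and the longest run their annotated transcripts share is 30 bases.

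Promoters of 2 gene pairs are shown because each pair is a set of neighbours whose ratio differed between classes of cells or between libraries. S100a8 and S100a9 were near parity in tumor neutrophil-like cells and far from it in ascites macrophage-like cells, a contrast in which class and library change together. In KPCA.A and KPCA.B most Wfdc17 UMIs lay in macrophage-like cells and most Wfdc18 UMIs in tumor epithelial-like cells. In KPCA.C and ascites macrophage-like cells held the largest share of Wfdc18 UMIs too (39.0% and 96.0%). Each sequence is 300 bases from RefSeq on GRCm38.p6, from 250 bases before the annotated start to 50 after it, 5′ to 3′ on the gene's own strand. Capitals mark matches to TATAAA (the core of a TATA box), GAGGAAG or its reverse complement (ETS core with PU.1 flank), or GGGCGG or its reverse complement (GC box).
S100a8 promoter, chr3:90668821-90669120, plus strand: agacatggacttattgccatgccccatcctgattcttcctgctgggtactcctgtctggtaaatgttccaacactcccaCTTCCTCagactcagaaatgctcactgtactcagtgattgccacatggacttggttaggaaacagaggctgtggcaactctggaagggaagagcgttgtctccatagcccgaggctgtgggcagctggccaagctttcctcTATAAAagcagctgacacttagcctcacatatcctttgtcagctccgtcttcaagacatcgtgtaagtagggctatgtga
S100a9 promoter, chr3:90695672-90695971, minus strand: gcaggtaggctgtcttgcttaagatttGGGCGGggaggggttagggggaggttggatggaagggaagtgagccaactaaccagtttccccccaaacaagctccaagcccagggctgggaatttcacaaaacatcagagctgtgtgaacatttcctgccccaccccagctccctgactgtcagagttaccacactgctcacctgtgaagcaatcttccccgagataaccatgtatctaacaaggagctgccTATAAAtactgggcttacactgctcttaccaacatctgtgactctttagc
Wfdc17 promoter, chr11:83703806-83704105, plus strand: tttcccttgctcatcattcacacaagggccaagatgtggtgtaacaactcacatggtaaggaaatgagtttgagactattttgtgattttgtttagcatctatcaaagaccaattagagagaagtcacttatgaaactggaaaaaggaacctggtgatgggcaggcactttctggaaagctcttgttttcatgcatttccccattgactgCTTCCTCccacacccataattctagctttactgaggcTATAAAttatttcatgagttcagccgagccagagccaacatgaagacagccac
Wfdc18 promoter, chr11:83708754-83709053, plus strand: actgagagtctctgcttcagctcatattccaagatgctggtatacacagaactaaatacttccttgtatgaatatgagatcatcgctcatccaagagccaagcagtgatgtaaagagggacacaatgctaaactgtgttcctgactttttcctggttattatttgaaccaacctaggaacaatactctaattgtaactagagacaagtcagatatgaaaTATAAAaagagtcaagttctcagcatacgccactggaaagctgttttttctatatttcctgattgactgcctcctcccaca

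All 4 windows held TATAAA, found on either strand of 13.6% of 32851 promoters of this length. It began 30 bases before the start used for the window in S100a8 and 31 bases before it in Wfdc18. In Wfdc17 it began 3 bases before that start, and in S100a9 at the start itself. The GENCODE starts of S100a8 and Wfdc17 given above differ from those of the windows and lie upstream of the TATAAA. The ETS core stood 171 bases before the start of S100a8 and 40 bases before that of Wfdc17, and was found in neither S100a9 nor Wfdc18. It occurred in 13.6% of promoters. The GC box of S100a9, 223 bases before its start, belongs to a motif found in 35.7% of promoters. None of these 4 windows matched TTGCNNNAA (C/EBP core, 9.56% of promoters), the NF-kB motif (1.63%) or TGANTCA (AP-1, 7.81%). A match is a string of letters and not a site, and the table holds a promoter for 7 of the 8 genes.

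**Figure D1:**
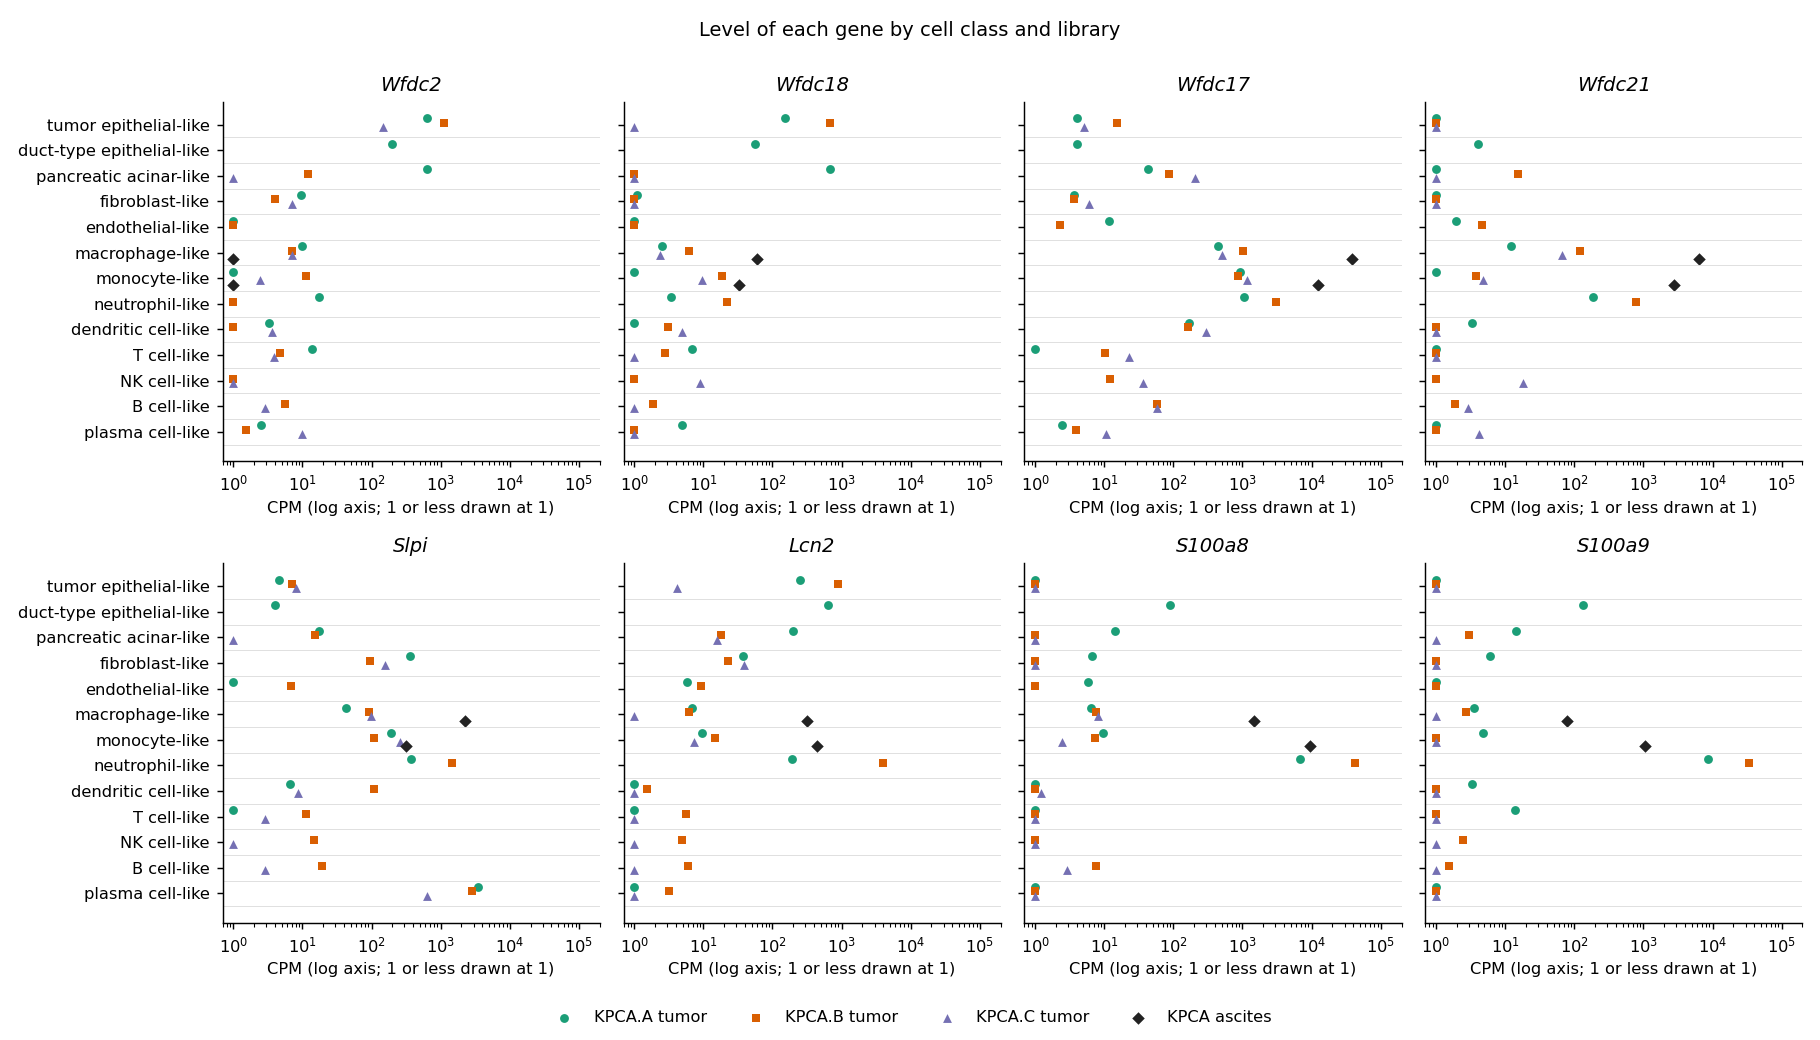
Level of each of the 8 genes by cell class in UMIs per 1000000 UMIs of the class (CPM, log axis, values of 1 or less drawn at 1), with 1 marker per library. In KPCA.A and KPCA.B, Wfdc2 and Wfdc18 were highest in epithelial classes and S100a8 and S100a9 in neutrophil-like cells, and across all libraries Wfdc17 and Wfdc21 were highest in ascites macrophage-like cells.

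The first comparison asked which cells held these transcripts. Levels are UMIs of a gene per 1000000 UMIs of the class (CPM), summed over cells, and a UMI counts 1 molecule whatever the transcript's length. Among classes with at least 20 cells in a library, neutrophil-like cells led for 4 of the 8 genes in KPCA.A and 5 in KPCA.B. Tumor epithelial-like cells led for 2 genes in KPCA.B (Wfdc2 and Wfdc18) and 2 in KPCA.C, of which S100a9 was at 0.291 CPM. In ascites only 2 classes had enough cells to be compared. Macrophage-like cells led there for 5 genes, of which Wfdc2 was at 0.465 CPM from 3 UMIs. Monocyte-like cells led for 3, namely Lcn2, S100a8 and S100a9. With unnamed cells kept as a class, these led ascites for Wfdc2 and S100a9 instead. In KPCA.A the order of tumor epithelial-like (643 CPM) and pancreatic acinar-like cells (639 CPM) for Wfdc2 is not settled.

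The share of all UMIs of a gene gave a different view, since it also counts how many cells a class had. Tumor epithelial-like cells held 97.4%, 89.8% and 95.7% of Wfdc2 UMIs in the 3 tumors. Macrophage-like cells held 76.4%, 89.5%, 84.6% and 97.3% of Wfdc17 UMIs and 48.6%, 91.9%, 95.1% and 96.8% of those of Wfdc21. The 224 neutrophil-like cells of KPCA.A held 85.7% of S100a8 UMIs and the 42 of KPCA.B held 97.2%.

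In KPCA.C and ascites macrophage-like cells held the largest share of S100a8 UMIs, 35.9% of 309 and 63.0% of 14817. The 4 neutrophil-like cells of KPCA.C held 29.4%. The main source of Slpi differed among the tumors, with fibroblast-like cells in KPCA.A (50.1%), plasma cell-like cells in KPCA.B (94.1%) and macrophage-like cells in KPCA.C (33.6%), and in ascites it was macrophage-like cells (97.6%). Lcn2 UMIs lay mainly in tumor epithelial-like cells in KPCA.A (89.8%) and KPCA.B (86.8%), but in KPCA.C fibroblast-like cells held the largest share (46.5%).

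**Figure D2:**
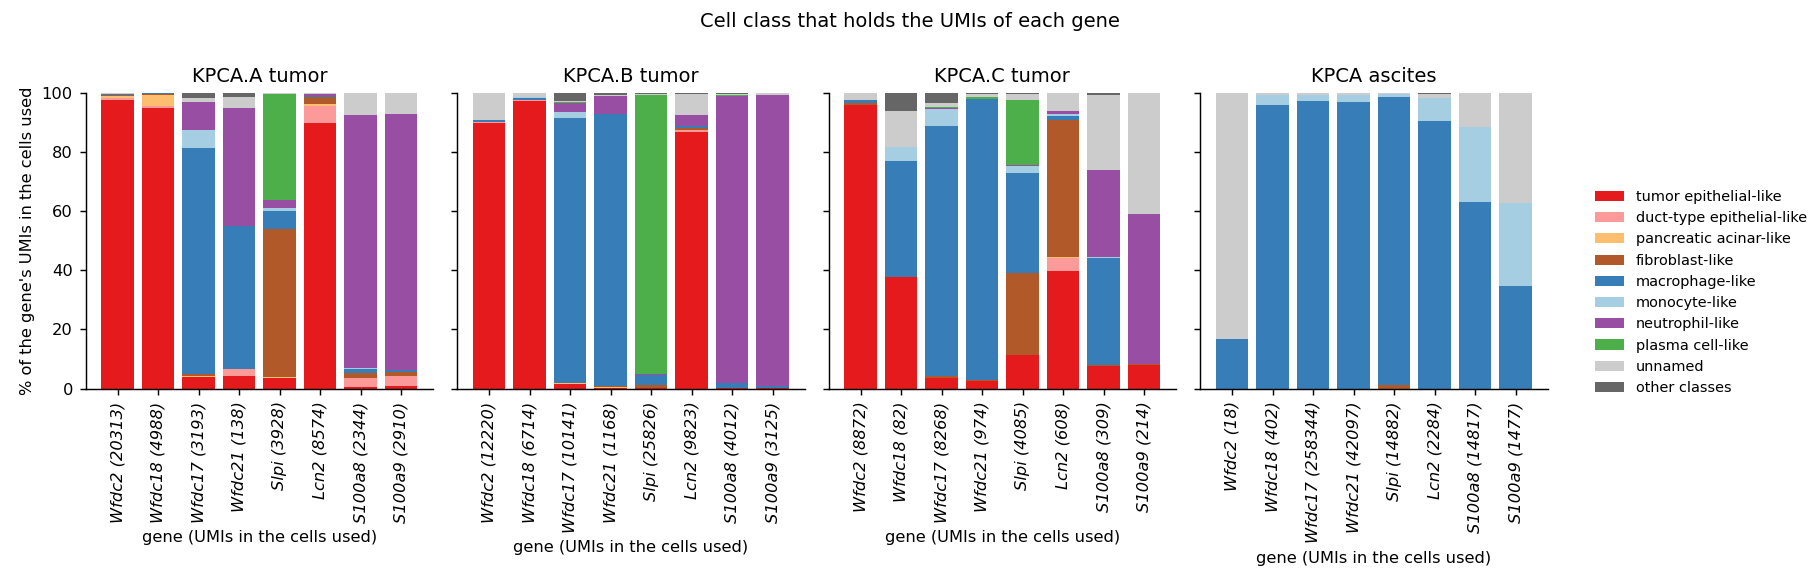
Percent of each gene's UMIs held by each cell class, as stacked bars, 1 per library, with the UMI total in the axis label. Macrophage-like cells held 97.6% of Slpi UMIs in ascites and plasma cell-like cells 94.1% in KPCA.B.

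In tumor epithelial-like cells Wfdc2 was at 643, 1133 and 145 CPM in KPCA.A, KPCA.B and KPCA.C (19786, 10971 and 8493 UMIs). Wfdc18 was at 154, 675 and 0.531 CPM, and Lcn2 at 250.4, 880.0 and 4.13 CPM. All 3 genes were highest in KPCA.B and lowest in KPCA.C. KPCA.B exceeded KPCA.A 1.76-fold for Wfdc2 (1.72 to 1.80), 4.39-fold for Wfdc18 (4.23 to 4.56) and 3.52-fold for Lcn2 (3.41 to 3.63). Wfdc2 kept more of its level in KPCA.C than the other 2: it was 4.42-fold below KPCA.A, where Wfdc18 was 289-fold and Lcn2 60.7-fold below.

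A gene was counted as past 2-fold where it had at least 50 UMIs in both libraries together and a ratio of at least 2 or at most 0.5. From KPCA.A to KPCA.B, 3 of the 5 genes with enough UMIs were higher (Wfdc17, Wfdc18 and Lcn2), beside 7.21% of all genes tested. From KPCA.A to KPCA.C, 3 of 5 were lower (Wfdc2, Wfdc18 and Lcn2), beside 9.54%. From KPCA.B to KPCA.C, 4 of 5 were lower, Wfdc17 added, beside 12.9%. These genes were picked for such differences, so nothing is read from the counts.

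The other 5 genes were low in tumor epithelial-like cells. Slpi was at 4.62, 7.02 and 8.05 CPM, and S100a8 at 0.488, 0.310 and 0.411 CPM, below 1 in every tumor. S100a9 (0.813, 0.310 and 0.291 CPM) and Wfdc21 (0.195, 0.310 and 0.428 CPM) were as low. Wfdc17 was at 4.03, 15.4 and 5.02 CPM. Its 3.82-fold excess in KPCA.B over KPCA.A (2.99 to 4.88) turned to a log2 ratio of -0.69 when every cell was thinned to 1000 UMIs, and 87.9% of its UMIs in KPCA.B lay in the top 10% of cells.

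Within the tumor epithelial-like cells the 3 epithelial genes were spread very unequally. In KPCA.A and KPCA.B the top 10% of cells held 55.4% and 56.4% of Wfdc2 UMIs, but 99.9% and 96.4% of Wfdc18 UMIs. For Lcn2 the shares were 97.6% and 72.8%. The richest KPCA.A cell had 1803 Wfdc18 UMIs and the richest KPCA.B cell 1980, while the median cell had 0 in both. A median cell had 9, 14 and 1 Wfdc2 UMIs in the 3 tumors.

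These high cells gathered in the clusters with the most Epcam, the epithelial adhesion molecule. The cluster with the highest Epcam in KPCA.A (59 cells, Epcam 1471 CPM) had Wfdc2 at 2281, Wfdc18 at 1510 and Lcn2 at 2089 CPM. Its counterpart in KPCA.B (65 cells, Epcam 1340.5 CPM) had 2357, 2496 and 2288 CPM. Epcam alone did not mark Wfdc18: another KPCA.A cluster of 66 cells with Epcam at 834 CPM had Wfdc2 at 1116 CPM, Lcn2 at 134 CPM and Wfdc18 at 2.55 CPM. In KPCA.C clusters of 20 or more cells had Epcam at 52.6 CPM or less, and Wfdc2 ranged from 36.0 to 318 CPM among them.

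**Figure D3:**
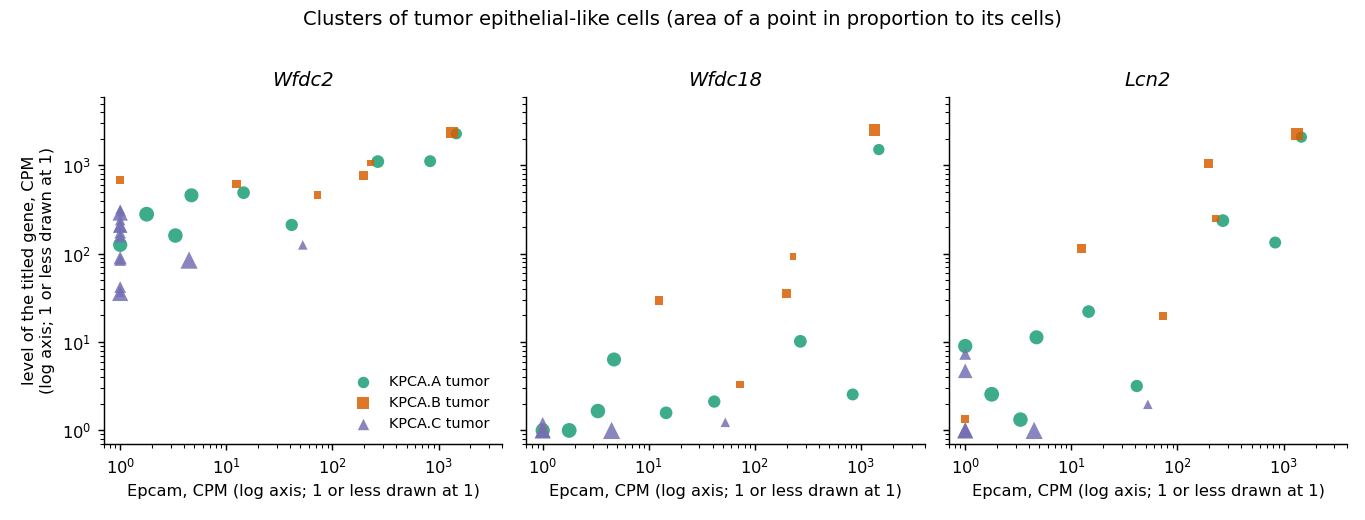
Wfdc2, Wfdc18 and Lcn2 against Epcam (CPM, log axes) in each cluster of tumor epithelial-like cells with 20 or more cells of a library, colored by library, with marker area proportional to the number of cells. Wfdc2 was present in every cluster shown, while Wfdc18 was above 1000 CPM in 1 cluster of KPCA.A and 1 of KPCA.B, those with the highest Epcam.

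The same held cell by cell at a fixed depth of 1000 UMIs. In KPCA.A, 71.6% of the 88 cells with an Epcam UMI and 26.9% of the 677 cells without one had a Wfdc2 UMI. For Wfdc18 the shares were 21.6% and 0.591%, and for Lcn2 37.5% and 3.99%. In KPCA.B (51 cells with and 195 without an Epcam UMI) they were 66.7% and 39.5% for Wfdc2, 29.4% and 7.69% for Wfdc18, and 76.5% and 20.5% for Lcn2. Only 1 thinned KPCA.C cell had an Epcam UMI, and 11.8% of the 1043 others had a Wfdc2 UMI. With all UMIs used, Wfdc2 was found in 98.1% and 82.7% of cells with and without an Epcam UMI in KPCA.A and in 96.6% and 66.0% in KPCA.B.

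Cells with Wfdc18 usually had Wfdc2 as well. Of the 23 thinned KPCA.A cells with a Wfdc18 UMI, 87.0% had a Wfdc2 UMI and 65.2% an Lcn2 UMI, against 30.3% and 6.06% of the cells without Wfdc18. Of the 30 such KPCA.B cells, 83.3% and 80.0% did, against 39.8% and 25.5%. These shares were taken at 1 depth, and the part of other traits of these cells was not tested.

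Epithelial cells outside the tumor class carried the same genes. Duct-type epithelial-like cells (78, 15 and 4 cells) had Lcn2 at 647, 260 and 453 CPM and Wfdc2 at 198, 196 and 129 CPM. Pancreatic acinar-like cells of KPCA.A (126 cells) had Wfdc2 at 639 CPM and Wfdc18 at 678 CPM. Those of KPCA.B (36 cells) had 12.2 and 0 CPM. The acinar-like cells of KPCA.A were shallow, with a median of 1122 UMIs, and the part of RNA from other cells in them was not tested.

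A list of mucosal secretory epithelial genes, in which Clu, Krt19 and Krt7 held the most UMIs, was set beside the epithelial members. From KPCA.A to KPCA.C, 24 of 31 were lower (beside 9.54% of all genes) and 1 higher, with a median log2 ratio of -2.32 against -0.05 for all genes. From KPCA.B to KPCA.C, 19 of 26 were lower (beside 12.9%) and 1 higher. The gene that was higher in both was Sprr1a, a cornified envelope protein, at 74.9, 60.1 and 211 CPM. Between KPCA.A and KPCA.B the list was split, with 5 of 32 higher (beside 7.21%) and 8 lower (beside 835 of 12069 genes) in KPCA.B. The stomach-type genes Tff1 (112 CPM against 0.929) and Gkn1 (107.5 CPM against 0.723) were lower in KPCA.B, opposite to Wfdc18 and Lcn2.

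Few other WAP-domain genes were measurable in tumor epithelial-like cells. Wfdc3 was at 1.69, 6.50 and 2.45 CPM, past 2-fold between KPCA.B and each of the others, and Wfikkn1 was under 1 CPM in KPCA.A and KPCA.C. Of a list of serine proteases that WAP inhibitors or serpins act on, 9 had enough UMIs. KPCA.C had 4 of them at a lower level than KPCA.A (beside 9.54% of all genes) and 0 at a higher one (beside 1030 of 13057 genes). The 4 were the membrane-anchored proteases St14 (19.4 to 0.788 CPM), Prss8 (5.40 to 0.240 CPM) and Tmprss2 (8.71 to 0.068 CPM) and the kallikrein Klk1 (11.5 to 2.12 CPM). The 3 listed proteases with the most UMIs, Plat, Furin and Prss22, stayed within 2-fold. Against KPCA.B, KPCA.C had 4 of 9 lower (beside 12.9% of all genes) and 1 higher. From KPCA.A to KPCA.B the list was split, with 2 of 9 higher (beside 7.21%) and 2 lower.

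In macrophage-like cells the picture changed from the tumors to ascites more than among the tumors. Wfdc17 was at 436, 1016, 508 and 38954 CPM, Wfdc21 at 12.0, 120.0, 67.2 and 6314 CPM, and Slpi at 42.0, 90.9, 99.6 and 2252 CPM. S100a8 was at 6.44, 7.49, 8.06 and 1448 CPM and S100a9 at 3.58, 2.68, 0 and 79.5 CPM. Each of these 5 genes was over 20-fold higher in ascites than in any tumor.

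Wfdc17, a WAP-domain gene of activated macrophages, was the most abundant of all shared genes in ascites macrophage-like cells, at 3.90% of their UMIs. It ranked 320, 138 and 283 in the tumors. It was 89.3-fold (85.8 to 92.9), 38.4-fold (37.6 to 39.2) and 76.7-fold (74.9 to 78.5) higher in ascites than in KPCA.A, KPCA.B and KPCA.C. The median ascites cell gave 2.92% of its UMIs to Wfdc17 and the highest gave 43.0%. Wfdc21 ranked 20 in ascites and 7432, 1291 and 2346 in the tumors, and together with Wfdc17, Slpi and S100a8 it made up 4.90% of the UMIs of these cells.

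Ascites exceeded the 3 tumors 527-fold (415 to 680), 52.6-fold (49.5 to 56.0) and 93.9-fold (88.0 to 100.4) for Wfdc21, and 53.6-fold, 24.8-fold and 22.6-fold for Slpi. For S100a8 it did so 225-fold (162 to 321), 193-fold (152 to 249.6) and 179.7-fold (149 to 219). S100a9 was 22.2-fold and 29.6-fold above KPCA.A and KPCA.B, and at least 365-fold above KPCA.C, where 0 UMIs were counted and 3 were taken as the floor. Lcn2 (6.80, 6.15, 0.581 and 321 CPM) and Wfdc18 (2.50, 6.26, 2.32 and 59.8 CPM) were also higher in ascites. Wfdc2 went the other way, at 10.0, 7.16, 7.11 and 0.465 CPM, and rests on 3 UMIs in ascites macrophage-like cells. The other 15 of the 18 ascites Wfdc2 UMIs (83.3%) lay in the unnamed cluster of 16 cells with Krt8 and Cdkn2a, at 109 CPM. T cell-like cells of the 3 tumors had Wfdc2 at 13.7, 4.70 and 3.86 CPM, from 2, 5 and 4 UMIs. The part of RNA from other cells in the Wfdc2 level of tumor macrophage-like cells was not tested.

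Thus 7 of 8 genes were higher and 1 lower in ascites against each tumor. Of all genes tested, 8.97%, 8.07% and 7.22% were higher and 41.4%, 43% and 40.5% lower. The median gene was lower in ascites, with log2 ratios of -0.58, -0.59 and -0.53. The 8 genes were picked for such differences, so nothing is read from these counts.

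Detection at a fixed depth was also highest in ascites for the 4 genes below, but for Wfdc17 and Slpi the order among the tumors differed from that of the levels. Among macrophage-like cells thinned to 1000 UMIs, Wfdc17 was found in 27.0%, 42.9%, 25.4% and 99.9% of cells, and Wfdc21 in 0.783%, 6.08%, 2.97% and 92.6%. Slpi was found in 3.66%, 6.25%, 4.60% and 51.5%, and S100a8 in 0.522%, 0.845%, 1.44% and 64.0%. As a guide to free RNA, thinned T, B and NK cell-like cells of the tumors had a Wfdc17 UMI in 0%, 3.98% and 3.86% of cells and an S100a8 UMI in 1.47%, 0.341% and 0%. The S100a8 share of macrophage-like cells in KPCA.A lay below this guide, which rests on 68 cells, and is not read as expression.

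Ascites held no lymphocyte-like class to serve as such a guide. Its 15 dendritic cell-like cells had Wfdc17 at 5245 CPM, Wfdc21 at 1065 CPM and S100a8 at 831 CPM, and its 4 fibroblast-like cells had Wfdc17 at 2131 CPM and S100a8 at 128 CPM. All these lay below the macrophage-like cells, whereas Slpi in the 4 fibroblast-like cells (6904 CPM) lay above them. How much of any ascites level is free RNA was not tested.

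Resident peritoneal macrophages depend on the transcription factor Gata6, so clusters with at least 50 CPM of Gata6 were compared on their own, a choice made after the data were seen. They held 26, 93, 80 and 2014 cells. Wfdc17 was at 2714, 1077, 1012 and 39013 CPM, Wfdc21 at 231, 505, 360 and 7229 CPM, and Slpi at 726, 374, 409 and 2782 CPM. S100a8 was at 0, 18.1, 13.1 and 1388 CPM. Against the Gata6 clusters of the 3 tumors, ascites was 14.4-fold, 36.2-fold and 38.6-fold higher for Wfdc17 and 3.83-fold, 7.44-fold and 6.80-fold higher for Slpi. The gap in Wfdc21 was 31.3-fold, 14.3-fold and 20.1-fold.

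For Wfdc17, Wfdc21 and Slpi the gaps were smaller than between whole classes. For Wfdc17 against KPCA.B they hardly differed, at 36.2-fold (34.7 to 37.9) and 38.4-fold (37.6 to 39.2), and the intervals overlap. All 7 genes that could be compared were higher in ascites, beside 23.3%, 10.8% and 8.35% of all genes higher. Other genes of resident cells differed in both directions: Gata6 was at 157, 171, 106 and 70.6 CPM, Cd5l at 215, 1636, 624 and 552 CPM, and Alox15 at 49.5, 1741, 1391 and 776 CPM.

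Among the ascites macrophage-like cells, Slpi followed the Gata6 clusters and Wfdc17 did not. Cells of the Gata6 clusters (2014) had Slpi at 2782 CPM and Wfdc21 at 7229 CPM. A set of clusters low in Gata6 (524 cells) had Slpi at 300.1 CPM and Wfdc21 at 3129 CPM. Wfdc17 peaked outside the Gata6 clusters, at 79259.8 CPM in a cluster of 93 cells. S100a8 peaked at 4343 CPM in another Gata6-poor cluster, of 90 cells.

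**Figure D4:**
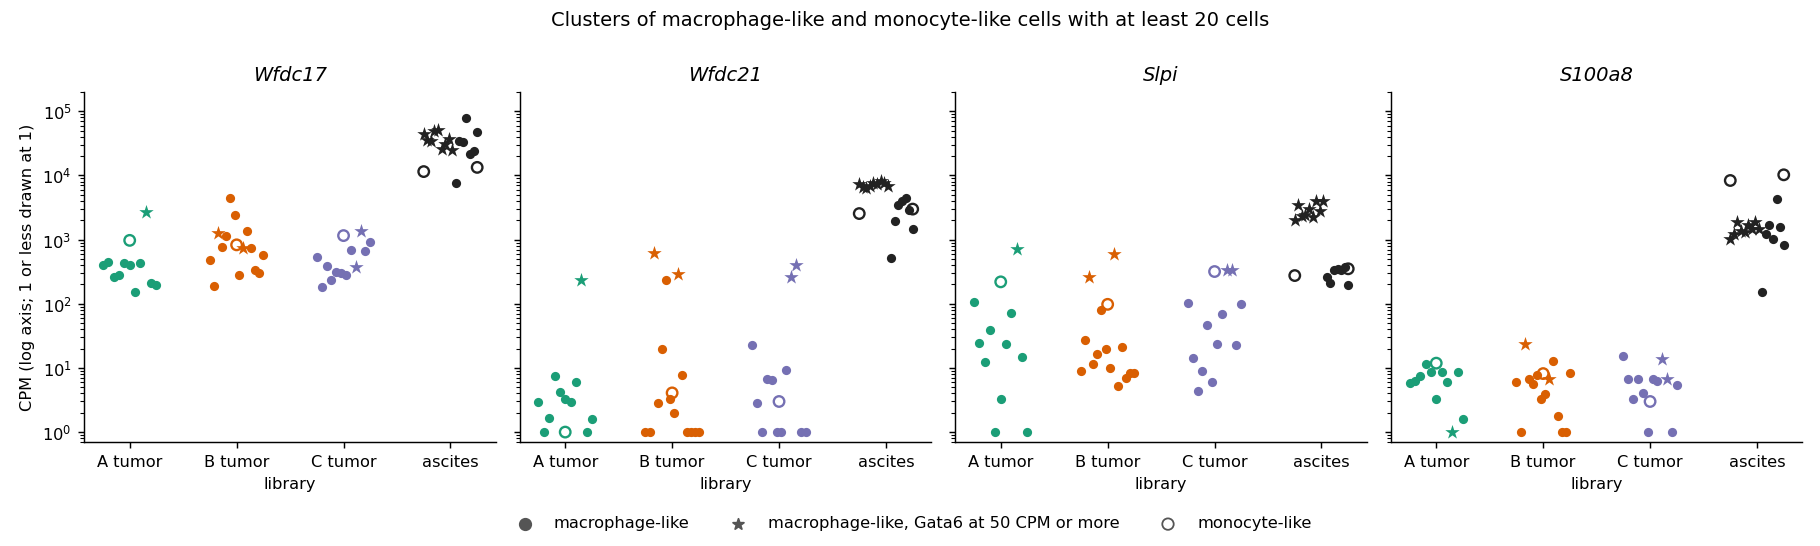
Wfdc17, Wfdc21, Slpi and S100a8 (CPM, log axis) in each macrophage-like or monocyte-like cluster of 20 or more cells, by library. Stars mark clusters with Gata6 at 50 CPM or more, and open circles are monocyte-like. Every ascites cluster lies above all tumor clusters for S100a8, while for Slpi the Gata6 clusters of the tumors reach the level of ascites clusters without Gata6.

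Between the tumors the differences in macrophage-like cells were smaller. KPCA.B exceeded KPCA.A 2.33-fold for Wfdc17 (2.23 to 2.43), 10.0-fold for Wfdc21 (7.82 to 13.02) and 2.16-fold for Slpi (1.87 to 2.51). KPCA.C exceeded KPCA.A 5.61-fold for Wfdc21 (4.37 to 7.30) and 2.37-fold for Slpi (2.06 to 2.73). From KPCA.A to KPCA.B 4 of 7 genes were higher, beside 5.27% of all genes. From KPCA.A to KPCA.C 2 of 5 were higher (2.82%), and from KPCA.B to KPCA.C 2 of 7 were lower (5.68%), namely Wfdc18 and Lcn2. In KPCA.B macrophage-like cells Wfdc18 was at 6.26 and Lcn2 at 6.15 CPM, and in KPCA.B B cell-like cells they were at 1.89 and 6.06 CPM. The part of RNA from other cells in these low levels was not tested.

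The Wfdc21 difference lay in few cells. The top 10% of macrophage-like cells held 91.1% of its UMIs in KPCA.B and 100% in KPCA.C. In KPCA.B it was at 613 CPM in a Gata6 cluster of 68 cells and at 2.87 CPM in the next largest cluster, of 64 cells. The counts from KPCA.A to KPCA.B and to KPCA.C were 2 and 0 in cells thinned to 1000 UMIs, where fewer genes reach 50 UMIs. For Slpi the log2 ratio of KPCA.B to KPCA.A was 0.10 once cells with neutrophil markers were left out.

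Related lists were read beside the macrophage members and the shares of all genes that were higher (8.97%, 8.07% and 7.22%) or lower (41.4%, 43% and 40.5%) in ascites. Of other S100 genes, 4 of 6, 3 of 6 and 4 of 7 were higher in ascites than in KPCA.A, KPCA.B and KPCA.C. S100a11 was at 304, 215, 350.0 and 1202 CPM and S100a6 at 561, 1014, 808 and 1886 CPM. S100a13 and S100a1 were past 2-fold against each tumor, while S100a4 was lower than in KPCA.B and S100a16 lower than in KPCA.C.

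Of the neutrophil granule list, 6 of 18, 5 of 19 and 6 of 19 genes were higher in ascites macrophage-like cells and 3, 4 and 4 lower. More of the list than of all genes was higher and less of it lower, with median log2 ratios of 0.49, 0.16 and -0.04 against -0.58, -0.59 and -0.53 for all genes. Chil3, a chitinase-like protein with the most UMIs of the list, was at 3709, 15277, 15309 and 21214 CPM. Retnlg, a resistin-like gene of neutrophils, was at 0.358, 0.559, 0 and 82.6 CPM. Lysozyme (Lyz2) was lower, at 4236, 4527, 2853 and 1191 CPM. The serine protease Prtn3, proteinase 3, was at 73.5, 160.0, 211 and 601 CPM, the one gene of the protease list higher in ascites against each tumor.

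Of acute-phase genes and those linked to NF-kB, C/EBP or STAT3, 5 of 25, 6 of 24 and 5 of 25 were higher and 12, 6 and 12 lower in ascites. Against KPCA.A and KPCA.C the part that was lower was near that of all genes, and the median log2 ratios were -0.68, 0.23 and -0.51. The serum amyloid gene Saa3 was at 773, 2794, 516 and 17835 CPM and Lrg1 at 23.1, 215, 122 and 1062 CPM. The complement gene C3 was lower, at 303, 682, 342 and 53.2 CPM.

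Of 13 genes listed as receptors or partners of Lcn2, calprotectin and Slpi, 3, 5 and 3 were higher and 3, 1 and 4 lower in ascites, again with more higher and fewer lower than among all genes. Their median log2 ratios were -0.22, 0.19 and 0.10. The Lcn2 receptor Slc22a17 was at 0.537, 3.47, 2.25 and 18.0 CPM, and Ly96, a co-receptor of Tlr4, at 22.5, 18.9, 27.8 and 105 CPM. Cd33, a receptor reported for S100a9, was at 102, 59.7, 134 and 375 CPM. The 3 listed genes with the most UMIs, Grn, Bsg and Cd68, were within 2-fold of KPCA.A.

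Monocyte-like cells showed a larger S100a8 difference than macrophage-like cells. S100a8 was at 9.61, 7.43 and 2.42 CPM in the tumors and 9334 CPM in ascites, and S100a9 at 4.80, 0, 0 and 1038 CPM. These ascites UMIs lay in few cells: the top 23 of 227 held 65.8% of those of S100a8 and 89.4% of those of S100a9. The median ascites monocyte-like cell had 2 S100a8 UMIs, as did the median ascites macrophage-like cell, and 0 S100a9 UMIs. Wfdc17 was at 913, 848, 1149 and 12467 CPM, 13.7-fold, 14.7-fold and 10.8-fold higher in ascites. Slpi lay closer together, at 192, 108, 262 and 315 CPM. Of 6 genes tested, 5, 6 and 5 were higher in ascites, beside 17.2%, 16.4% and 11.1% of all genes. Between the tumors 2 genes had enough UMIs, and 0 of them differed by 2-fold from KPCA.A to KPCA.B (beside 11.6% of all genes either way) or to KPCA.C (3.84%). Slpi was higher in KPCA.C than in KPCA.B (beside 6.41%).

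Neutrophil markers moved with S100a8 here. Of 12 neutrophil markers, 10 were detected in ascites monocyte-like cells, at a summed 2408 CPM, with Ly6g and Mrgpra2b at 0. The sum was 404, 197 and 429 CPM in tumor monocyte-like cells, with 5 to 7 markers detected. In macrophage-like cells it was 253, 89.1, 282 and 383 CPM, and in neutrophil-like cells 8228 and 12854 CPM in KPCA.A and KPCA.B. The part of neutrophil RNA in the monocyte-like level of S100a8 was not tested.

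In neutrophil-like cells the members were compared between KPCA.A and KPCA.B, because KPCA.C had 4 such cells. S100a8 was at 6902 and 43083 CPM (2009 and 3898 UMIs) and S100a9 at 8664 and 33964 CPM. Wfdc17 was at 1041 and 3095 CPM, Slpi at 371 and 1448 CPM, Wfdc21 at 189 and 785 CPM, and Lcn2 at 192 and 4001 CPM. The 4 cells of KPCA.C had S100a8 at 9991, S100a9 at 11858 and Lcn2 at 769 CPM.

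Every member with enough UMIs, 6 of 6, was higher in KPCA.B, beside 7.83% of all genes. The excess was 2.97-fold for Wfdc17 (2.52 to 3.51), 3.90-fold for Slpi (3.002 to 5.08) and 20.8-fold for Lcn2 (15.7 to 28.1). Among cells thinned to 1000 UMIs, S100a8 was found in 73.2% and 88.9%, and Wfdc17 in 28.7% and 69.4%. Median depth was 1266 and 1975.5 UMIs.

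A single KPCA.B cell shaped several of these values. It had 11930 UMIs, among them 658 of Ngp, 294 of Ltf and 159 of Camp, genes of granules made while neutrophils mature in the marrow. It held 281 of the 362 Lcn2 UMIs of the class, 47 of 71 of Wfdc21 and 1810 of 3898 of S100a8. Without it KPCA.B had Lcn2 at 1031 CPM, S100a8 at 26583 CPM, S100a9 at 24673 CPM and Wfdc21 at 306 CPM, and 5 of the 6 genes, all but Wfdc21, stayed past 2-fold (beside 8.88% of all genes). Wfdc17 and Slpi, at 3565 and 1629.6 CPM, did not depend on it. The 1 KPCA.A cell with a Camp or Ngp UMI mattered less, with S100a8 at 6765 CPM and Lcn2 at 169 CPM without it.

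In 1 neutrophil-like cluster, picked after its values were seen, the Wfdc17 gap was absent. The cluster led by Cxcr2 and Retnlg, 23 cells in each tumor, had Wfdc17 at 5105 CPM in KPCA.A and 4517 CPM in KPCA.B. Lcn2 was at 962 and 1788 CPM there and Slpi at 1443 and 2660 CPM. S100a8, at 10580.4 and 36158 CPM, and S100a9, at 13688 and 34645 CPM, still parted the tumors. Most KPCA.A cells fell into other clusters, the largest with 48 cells, so the class was made up differently in the 2 tumors. Each other cluster of the class with KPCA.B cells, 1 to 6 of them, had more Wfdc17 in KPCA.B. In the cluster of 48 it was at 158 CPM in KPCA.A and 638 CPM in KPCA.B. The part of the makeup of the class in the Wfdc17 gap was not tested.

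Granule genes were higher along with the members in this class, but mostly in that 1 cell. Of 17 neutrophil granule genes, 10 were higher (beside 7.83% of all genes) and 1 lower in KPCA.B. Their median log2 ratio was 1.16 against -0.07 for all genes. Without the cells that had a Camp or Ngp UMI, 2 of 13 were higher (beside 8.88%) and 1 lower. The median log2 ratio of the list was then 0.12, while the 6 members kept a median of 1.87. Ltf, lactoferrin, was at 113 and 3249 CPM and Ngp at 3.44 and 7273 CPM, with all KPCA.B UMIs of both in the cell described above. Mmp9, the gelatinase with the most UMIs of the list, was at 1972 and 1448 CPM, and Arg1 was lower, at 436 and 188 CPM. The other S100 genes tested, S100a6 and S100a11, were higher with and without that cell, at 2321 and 1901 CPM in KPCA.B against 1017 and 825 CPM in KPCA.A.

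The ratio of S100a8 to S100a9 UMIs differed between neutrophil-like and ascites macrophage-like cells. It was 0.797 (0.751 to 0.845) in neutrophil-like cells of KPCA.A and 1.27 (1.21 to 1.33) in those of KPCA.B. In ascites macrophage-like cells it was 18.2 (16.7 to 19.9, from 9342 and 513 UMIs), and in ascites monocyte-like cells 9.00 (8.13 to 9.98). Tumor macrophage-like cells had few UMIs of either gene, 36 of S100a8 and 20 of S100a9 for KPCA.A, 67 and 24 for KPCA.B, and 111 and 0 for KPCA.C. In ascites the ratio differed between these classes beyond counting error.

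Across the ascites macrophage-like clusters of more than 50 cells the ratio ranged from 8.61 to 63.1, which takes in the ratio of the ascites monocyte-like cells. A cluster of 35 ascites cells (median 982 UMIs), left unnamed because its leading genes mixed neutrophil genes such as Retnlg and Il1r2 with markers of other classes, had Retnlg at 7465 CPM, S100a8 at 22819 CPM, S100a9 at 7324 CPM and Wfdc17 at 13322 CPM. Its ratio was 3.12 (2.82 to 3.45), below that of the ascites macrophage-like and monocyte-like cells and above that of the tumor neutrophil-like cells. Unnamed cells held 37.0% of all ascites S100a9 UMIs.

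**Figure D5:**
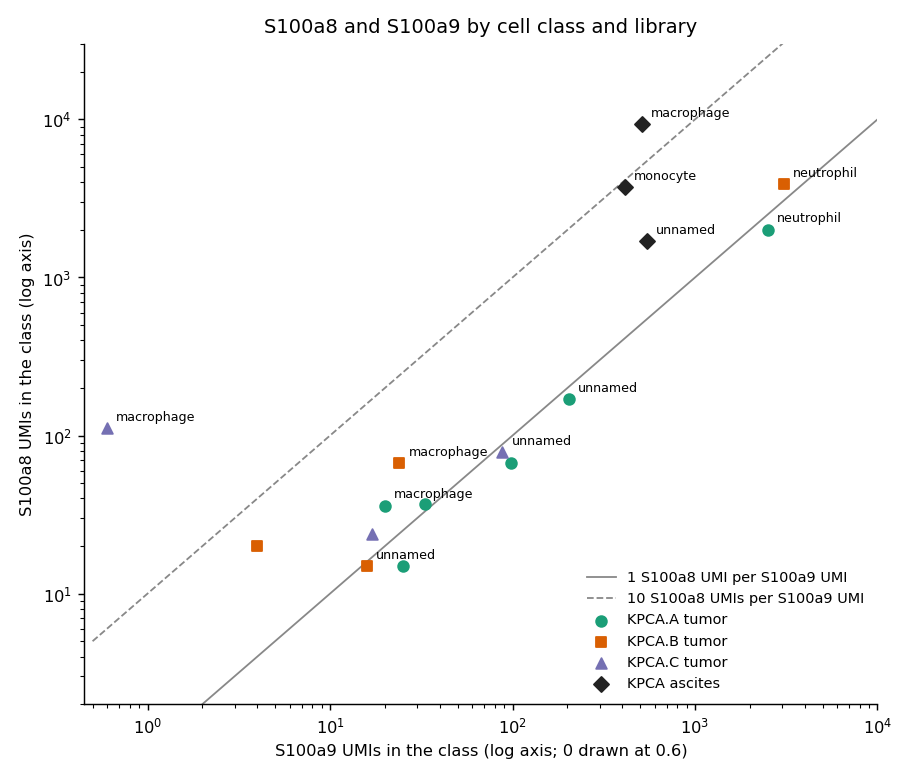
S100a8 UMIs against S100a9 UMIs (log axes, 0 drawn at 0.6) for each class and library, with lines at equal counts and at 10 S100a8 UMIs per S100a9 UMI. Neutrophil-like cells of KPCA.A and KPCA.B lie near the line of equal counts and ascites macrophage-like cells above the other line.

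Whether ascites held neutrophil-like cells depended on the cell filter and the clustering. None were named at the settings used, whereas a looser filter gave 38, with a median of 611.5 UMIs, and clustering at resolution 0.5 or 2 gave 52 or 17. In those 38 cells S100a8 made up 13.3% of UMIs, S100a9 4.12% and Wfdc17 4.83%. With the looser filter, neutrophil-like cells led ascites for Wfdc17, Wfdc18, Wfdc21, Lcn2, S100a8 and S100a9. At resolution 0.5 they led for S100a8 and S100a9, and at resolution 2 they were under the 20 cells needed to be compared. Macrophage-like cells led ascites for Slpi under each setting tried.

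Slpi was the 1 member that plasma cell-like cells led, in all 3 tumors. They had it at 3486, 2888 and 635 CPM in KPCA.A, KPCA.B and KPCA.C, with 1408, 24312 and 900 UMIs. It was unevenly spread there: the top 10% of cells held 92.3%, 90.8% and 89.8% of these UMIs, and 1 KPCA.B cell held 2131. It was the 1 member tested in this class, and KPCA.C had less of it than KPCA.A (beside 1.56% of all genes) and KPCA.B (2.94%). Between KPCA.A and KPCA.B it stayed within 2-fold (20.9% of genes passed it either way).

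Fibroblast-like cells had Slpi at 359, 95.4 and 156 CPM. In KPCA.A it came mainly from a cluster of 47 cells at 1418 CPM that also had the mesothelial genes Msln (190 CPM), Upk3b (163 CPM) and Lrrn4 (127 CPM). The matching 33 cells of KPCA.C had Slpi at 564 CPM. From KPCA.A to KPCA.B 2 of 3 members tested in fibroblast-like cells were lower, Wfdc2 and Slpi (beside 5.09% of all genes), and from KPCA.A to KPCA.C 1 of 4, Slpi (2%). The Wfdc2 call rests largely on 1 KPCA.A cell, which held 30 of the 53 UMIs there, against 11 UMIs in KPCA.B. From KPCA.B to KPCA.C 0 of 4 were past 2-fold (9.71% either way).

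The 3 Wfdc genes of chromosome 11 did not keep 1 ratio in spite of their short spacing. In macrophage-like cells there were 5.74, 6.17, 4.57 and 1.54 UMIs of Wfdc18 per 1000 of Wfdc17, so the ratio was lowest in ascites, where Wfdc17 was highest. Wfdc21 per 1000 Wfdc17 was 27.5, 118, 132 and 162. Wfdc18 therefore did not follow Wfdc17 in proportion, and the part of misassigned reads in the low Wfdc18 counts was not tested.

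Likeness was measured over 23 points, each a class in a library with at least 50 cells, as Pearson's r of log2(CPM + 5), among 7958 genes. Points of 1 library share depth and free RNA, so r is given as a description. The genes most like Wfdc2 were Wnt7b (0.97), Mlph (0.97) and Cldn2 (0.96), and those most like Wfdc18 were Cldn4 (0.87), Plekhs1 (0.86) and Foxq1 (0.86). Wfdc17 was most like Alox5ap, Mcemp1 and Ccl6 (0.93 each), and Wfdc21 like Fabp7 (0.92), Ly6i (0.91) and Mmp8 (0.89). Slpi stood near the secretory pathway genes Selenos (0.87), Derl1 (0.80) and Cope (0.77).

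Lcn2 had the weakest best match, Perp at 0.82, ahead of Gclm (0.76) and Slc40a1 (0.74). S100a8 and S100a9 shared Retnlg (0.95 for each) as their best match, followed by Cxcl3 (0.92) and Cstdc4 (0.89) for S100a8 and by Cstdc4 (0.93) and Fpr1 (0.88) for S100a9. Among the members, S100a8 and S100a9 had the highest r, 0.95, although their ratio differed between classes. Wfdc17 and Wfdc21 had 0.90, Wfdc18 and Lcn2 0.79, Wfdc2 and Wfdc18 0.78, and Wfdc17 and Wfdc18 0.11.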

How the data were processed

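The 4 libraries were deposited as count matrices of UMIs per gene and barcode, unnormalized, with separate lists of genes and barcodes that the authors also deposited. Per the file headers, Cell Ranger 4.0.0 made the tumor matrices and 3.0.2 the ascites matrix, whereas the submitters' processing notes name 3.1.0 and mm10. The gene lists hold 32285 and 31053 genes, and the 30406 shared ones were used. Differing software versions and the lower depth of ascites can shift levels between ascites and tumors.

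Barcodes needed 300 genes, 500 UMIs and no more than 15% of UMIs from mitochondrial genes. Clustering used scanpy 1.11.5 and leidenalg 0.10.2 under python 3.11.15 (1993 variable genes after the 8 described genes were removed, 30 principal components, 15 neighbours, resolution 1), and each large cluster was clustered again. Clusters were named from marker lists, with naming limits set after the data were seen. Of 158 clusters, 16 with 490 cells stayed unnamed. Scrublet marked 22 of 11253 cells (0.196%), too few to have worked, so doublets remain.

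For each class in each library the UMIs were added up and expressed as CPM. Ratios have exact conditional 95% intervals and shares exact binomial ones (Clopper-Pearson, scipy 1.17.1). A ratio was called at 2-fold or more with at least 50 UMIs in both libraries together, in classes with at least 50 cells (20 for neutrophil-, monocyte- and plasma cell-like classes). No test was made, since each group is 1 library. Thinned cells were drawn down to 1000 UMIs, without the shallower ones. The method was tested on simulated data.

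The 8 genes and the related gene lists were chosen with earlier results of these data known. Besides the 8 genes, the naming rule took from each list the 3 genes with the most UMIs and any genes of a count of 5 or fewer, and for each member the 3 genes with the highest correlation. Other list genes, single clusters, the granule-gene cell and the Gata6 clusters were picked after their values were seen. Alternatives were other cell filters, resolutions, scalings, thresholds, thinning and class rules. Figures were drawn with matplotlib 3.10.9. Promoters are RefSeq, GRCm38.p6, and gene positions come from the GENCODE annotation of GRCm38.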

Additional observations from a re-analysis of the deposited data

Results flagged for a closer look

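The barcodes that the cell filter left out were used in no comparison, and they held S100a8 in every library. In KPCA.A the 3055 left-out barcodes had S100a8 at 18.2 CPM and held 9.11% of all its UMIs. In KPCA.B the 772 left-out barcodes had it at 11.02 CPM, with 0.521% of its UMIs. In KPCA.C the 1012 left-out barcodes had it at 11.9 CPM, with 15.1% of its UMIs. The 197 ascites barcodes left out had it at 9291 CPM, with 12.0% of its UMIs, and S100a9 at 2725 CPM. These levels are above the limit that a count of 0 allows. The barcodes are shallow or rich in mitochondrial reads, and which cells they came from was not tested.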

How the results depend on the processing

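Besides the alternatives listed with the design, those on unnamed clusters, Gata6 clusters, granule-gene cells and cells with neutrophil markers were chosen after seeing the data. Of the counts, shares and leading classes, 131 values stayed close to the reported one under the alternatives and 21 moved. For counts this compared totals only, and not the direction of the calls or which genes were called. Of the ratios of single genes, 754 stayed, 25 moved and 3 reversed. The 63 ratios at a 4-fold threshold and the 63 at a minimum of 10 UMIs could only stay. The same holds for ratios not past 2-fold at the settings used, so 754 does not measure stability.

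In tumor epithelial-like cells, the members past 2-fold between KPCA.A and KPCA.B were 6 with a looser cell filter and 1 at a 4-fold threshold. Between KPCA.A and KPCA.C they were 5 with a looser cell filter, 5 by the mean over cells and 5 with a minimum of 10 UMIs. The log2 ratio of Wfdc17 reversed to -0.69 from KPCA.A to KPCA.B and 1.37 from KPCA.B to KPCA.C in thinned cells, and to 0.66 from KPCA.B to KPCA.C by the mean over cells. In macrophage-like cells, the count between KPCA.A and KPCA.B was 2 in thinned cells and 1 at 4-fold. Between KPCA.A and KPCA.C it was 0 in thinned cells, 4 with a minimum of 10 UMIs and 1 at 4-fold, and between KPCA.B and KPCA.C it was 4 with a stricter cell filter, 4 by the mean over cells and 1 at 4-fold. In neutrophil-like cells it was 3 at 4-fold. With a looser cell filter, 1 of 8 genes kept its leading class in ascites. Without thinning, Wfdc17 was found in 12.2% and 13.8% of lymphocyte-like cells of KPCA.B and KPCA.C, and Wfdc2 in 98.1% of tumor epithelial-like cells with an Epcam UMI and 82.7% without one in KPCA.A, and 96.6% and 66.0% in KPCA.B. Thinning leaves fewer genes with enough UMIs, a lower minimum leaves more, and a 4-fold threshold passes fewer. Otherwise the cause was not tested.

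Neutrophil-like comparisons with KPCA.C were not run, since 4 cells are too few. No paired analysis was possible because each group has 1 library. Wfdc2 in ascites macrophage-like cells rests on 3 UMIs, so counting error limits its ratios there.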
